A study of Homo sapiens with 12 samples.

Results

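The proteasome genes were described in SK-UT-1 cells, an established line of human uterine leiomyosarcoma (uLMS), after treatment with a bromodomain and extra-terminal inhibitor (BETi). Members were all gene symbols of the expression table made of PSM, 1 letter from A to G and a number, which gave 47 of 22784 symbols. A further 21 symbols that begin like them were left out, namely 15 pseudogenes, 4 antisense or divergent transcripts and 2 other genes, PSMC3IP and PSME3IP1. The members fell into 8 core alpha genes, 7 core beta genes, 3 inducible and tissue-specific beta genes, 6 base ATPase genes, 11 non-ATPase genes of the base and lid, 3 cap assembly chaperones, 5 activators and inhibitors and 4 core assembly chaperones. Of the 47 members, 43 reached 10 normalized counts in at least 3 libraries and were tested, and PSMA8, PSMB3, PSMB9 and PSMB11 did not. PSMB8, an inducible beta gene, was not analysed here.

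The libraries were RNA-seq of 3 treatment groups, namely the vehicle DMSO and the BETi JQ1 and I-BET-762 at 5 µM each, collected at 48 h, and each BETi group was set against DMSO to ask which transcripts differ. JQ1 and I-BET-762 occupy the acetyl-lysine pocket of the bromodomains, and among other differences JQ1 has a thiophene ring where I-BET-762 has a benzene ring fused to the triazolodiazepine. Values were available for 3 DMSO libraries (replicates 13 to 15), 4 JQ1 libraries (replicates 17 to 20) and 3 I-BET-762 libraries (replicates 21 to 23), all from the 1 cell line, and they are listed below in that order. The labels do not say whether replicates were separate cultures, so p-values measure only the spread between these libraries.

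Reads on genes ranged from 35564586 to 39658989 per library. Of 7 smooth muscle markers in the table, 6 averaged at least 10 normalized counts while ACTG2 was at the floor of 3 reads, and their sum lay between 11252 and 11576 in DMSO libraries, between 5535 and 6337 in JQ1 libraries and between 6184 and 6285 in I-BET-762 libraries. ACTA2, at a mean of 7071 with DMSO, weighed most in this sum, and the markers did not move alike. TAGLN fell from a mean of 1599 to 126 with JQ1 and 157 with I-BET-762. SMTN did not fall, with means of 2324 with DMSO, 2644 with JQ1 and 2657 with I-BET-762. The epithelial markers, of which 4 of 5 averaged at least 10, summed to between 1212 and 1271 in DMSO, 511 and 602 in JQ1 and 497 and 544 in I-BET-762 libraries. The 3 endothelial markers and the 4 immune markers in the table summed to at most 7.40 and 5.07. The part of these marker changes in the proteasome results was not tested, and in bulk RNA fewer cells of a type and less RNA per cell cannot be told apart.

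The proteasome degrades proteins tagged with ubiquitin. Its barrel-shaped core is built from rings of alpha and beta subunits, and the beta subunits PSMB5, PSMB6 and PSMB7 carry the proteolytic sites. The regulatory cap recognises and unfolds substrates through its ATPase ring and non-ATPase subunits, and other activators can bind the core in its place. After exposure to interferon the inducible subunits PSMB8, PSMB9 and PSMB10 replace PSMB5, PSMB6 and PSMB7 to form the immunoproteasome, which favours peptides for MHC class I. The transcription factor NFE2L1 binds antioxidant response elements in proteasome promoters and raises their transcription when proteasome activity is low.

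The promoters of 4 members are shown because they belong to the genes with the largest fall (PSMB10), the largest rise with JQ1 (PSME4) and the opposed changes of a partner pair (PSME1 and PSME2). Each line gives the 250 bases before the transcription start in RefSeq (GRCh38.p14), 5′ to 3′ on the gene's strand, with motif matches in capitals. The promoter of PSMB10 is at chr16:67936851-67937100 (minus strand), that of PSME1 at chr14:24135944-24136193 (plus strand), that of PSME2 at chr14:24146611-24146860 (minus strand) and that of PSME4 at chr2:53970994-53971243 (minus strand).
PSMB10: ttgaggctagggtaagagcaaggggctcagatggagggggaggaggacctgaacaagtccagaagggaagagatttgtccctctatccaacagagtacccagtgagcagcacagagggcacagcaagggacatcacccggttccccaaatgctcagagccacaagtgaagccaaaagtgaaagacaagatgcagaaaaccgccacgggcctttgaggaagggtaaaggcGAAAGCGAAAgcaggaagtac
PSME1: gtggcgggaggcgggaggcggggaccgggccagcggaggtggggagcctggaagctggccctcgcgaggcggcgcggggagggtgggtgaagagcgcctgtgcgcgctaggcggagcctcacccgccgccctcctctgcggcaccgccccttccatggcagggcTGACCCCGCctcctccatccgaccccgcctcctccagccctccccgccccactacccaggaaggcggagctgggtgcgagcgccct
PSME2: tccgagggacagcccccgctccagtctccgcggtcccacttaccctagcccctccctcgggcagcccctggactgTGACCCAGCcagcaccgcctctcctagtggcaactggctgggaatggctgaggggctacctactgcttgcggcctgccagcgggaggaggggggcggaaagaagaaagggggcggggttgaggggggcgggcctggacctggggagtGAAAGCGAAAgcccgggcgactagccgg
PSME4: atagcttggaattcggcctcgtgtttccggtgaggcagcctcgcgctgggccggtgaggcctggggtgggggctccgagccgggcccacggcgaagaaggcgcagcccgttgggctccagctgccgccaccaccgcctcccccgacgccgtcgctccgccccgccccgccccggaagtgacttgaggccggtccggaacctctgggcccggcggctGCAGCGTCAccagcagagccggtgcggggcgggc

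PSMB10 and PSME2 held the same 10 letters GAAAGCGAAA, 11 and 18 bases before the start, which match the core of the interferon-stimulated response element. PSME1 held a match to the antioxidant response element core that ended 77 bases before the start, PSME2 one that ended 166 bases before it, and PSME4 one on the opposite strand that ended 25 bases before it. The motifs searched on both strands were TGACNNNGC (antioxidant response element core), GAAA and GAAA around any 2 bases (interferon-stimulated response element core), TTCNNNGAA (STAT site) and CACGTG (E-box), and in 0 of the members' promoters did matches to different motifs overlap. Promoters were found for 41 of the 47 members, 49 promoters in all, and 6 members (PSMA7, PSMB1, PSMB6, PSMB7, PSMD4 and PSMG3) had no entry. TGACNNNGC was present in 13 of the 49 promoters (26.5%), against 10.9% of all 35116 promoters of the same length. The interferon-stimulated core was present in 5 of 49 (10.2%, against 3.02% of all promoters), namely those of PSMA4, PSMB4, PSMB10, PSME2 and PSMG4. With the 50 bases after the start included, PSME1 joined these, which gave 6 of 49 (12.2%, against 3.57%). TTCNNNGAA was present in 6 of 49 (12.2%, against 6.57%) and CACGTG in 3 of 49 (6.12%, against 6.34%). A match describes the letters and not a bound site. The members with a TGACNNNGC match included PSMA4, PSMC5, PSMD3, PSME1, PSME4 and PSMG1, which were higher with each inhibitor, and PSMD5, PSME2 and PSMG2, which were lower with each. The 5 with the interferon-stimulated core likewise held PSMA4 and PSMB4, higher with each inhibitor, and PSMB10 and PSME2, lower with each.

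With DMSO, levels of the core and cap genes varied widely within each class. Per kb of canonical transcript, the 27 genes of the core and cap with no part of that transcript shared with another gene on the same strand ran from 1311 (PSMD11, a lid subunit) to 13818 normalized counts (PSMB4, a structural beta subunit) in DMSO libraries, with a median of 3515. The median was 6839 over 6 core beta genes, 4006 over 4 core alpha genes, 2932 over 6 base ATPase genes and 3288 over 11 non-ATPase genes of the base and lid. The assembly chaperones were lower, with medians of 1388 over 4 core chaperones and 1381 over 2 cap chaperones. PSME1 and PSME2, partners in the PA28 activator ring, were at 8997 and 9221 per kb, against 846 for PSME4 and 989.7 for PSME3. These levels and their order depend on the length used, since the counts are of whole genes. The canonical transcript has 918 bases for PSMB4, 793 for PSME2 and 1070 for PSMG2. All their exons together cover 2125, 3582 and 12490 bases. PSMA1, PSMA2, PSMA6, PSMB10 and PSMD9 stood low, and a further protein-coding gene on the same strand covers 67.0%, all, 81.4%, 56.1% and 28.8% of their canonical transcripts in Gencode V44. How reads over such shared exons were assigned is not given in the sources used here, so the levels of these 5 genes may hold only part of their reads.

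**Figure D1:**
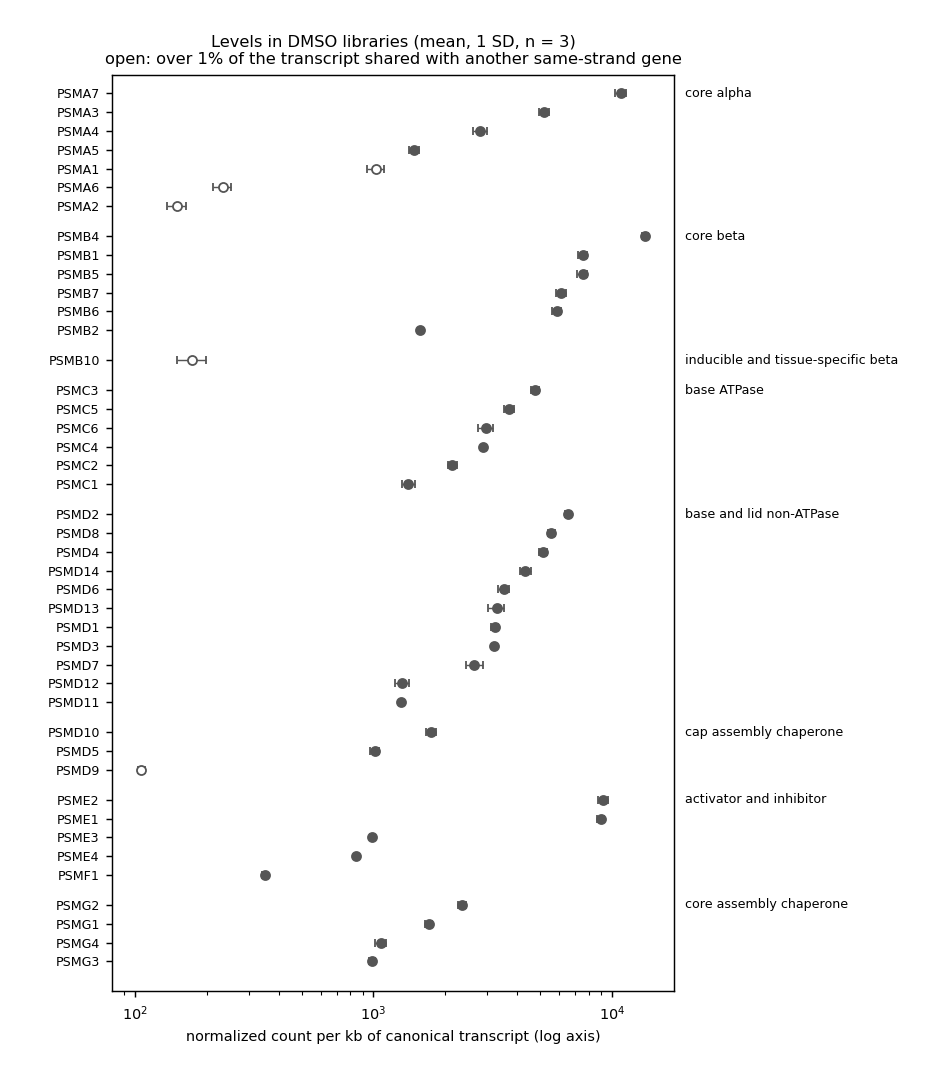
Mean normalized count per kb of canonical transcript (log axis) of the 43 tested proteasome genes in the 3 DMSO libraries, by class, with whiskers of 1 SD. Open points are the genes whose canonical transcript is shared for over 1% with another same-strand gene, and these 5 genes include PSMA2, PSMA6, PSMB10 and PSMD9 at the low end.

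PSMB3, a structural core subunit, and PSMB9, the inducible partner of PSMB6, had at most 2 reads in any library. All 13 of the 75-base exon windows of PSMB3 and all 41 of PSMB9 have exact copies on alternate contigs of hg38, where reads can map equally well. Among protein-coding genes within 100 kb in the table, 4 of 6 neighbours of PSMB3 and 2 of 3 neighbours of PSMB9 (TAP1 and HLA-DMB) also averaged under 10 normalized counts. The genes are therefore only listed at 0 or near it, and no level or change is given for either. PSMA8, a testis alpha subunit, and PSMB11, the thymus beta subunit, were likewise at or below 2 reads in each library, below the 3 reads that a count of 0 allows (2.73 to 3.3 normalized counts, covering counting error only).

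With JQ1, 19 of the 43 tested members were higher than with DMSO, 9 were lower and 15 did not pass the test (adjusted p under 0.05 in limma, with Benjamini-Hochberg adjustment over 14839 genes). The changes were mostly small, and PSMB10 alone exceeded 1.5-fold. Calls were common among all genes as well: 71.7% of all tested genes were called with JQ1, 36.0% higher and 35.6% lower, against 65.1% of the members, 44.2% higher and 20.9% lower. Past 1.5-fold the call held for 36.1% of all genes and for 1 of 43 members. In every JQ1 library 19 members were above all DMSO libraries and 8 were below them (34.1% and 34.3% of all genes). The median log2 fold change of the members was 0.15, against 0.01 for all tested genes.

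With I-BET-762, 13 members were higher than with DMSO, 8 were lower and 22 did not pass the test, so 48.8% were called against 61.1% of all tested genes (29.9% higher and 31.3% lower). PSMB10 was again the 1 member past 1.5-fold, a size that 26.9% of all genes reached. All I-BET-762 libraries lay above all DMSO libraries for 16 members and below them for 9 (34.8% and 36.2% of all genes). The median log2 fold change was 0.05 for the members and -0.00063 for all genes. Both inhibitors were compared with the same DMSO libraries, so the calls are not independent. Side by side, 11 members were higher with each inhibitor, 8 were lower with each, 8 were higher with JQ1 alone, PSMB6 was lower with JQ1 alone, PSMA2 and PSMD10 were higher with I-BET-762 alone, 13 passed with neither, and 0 were called in opposite directions. These joint counts were made for the members only, so whether they differ from those of all genes was not tested.

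**Figure D2:**
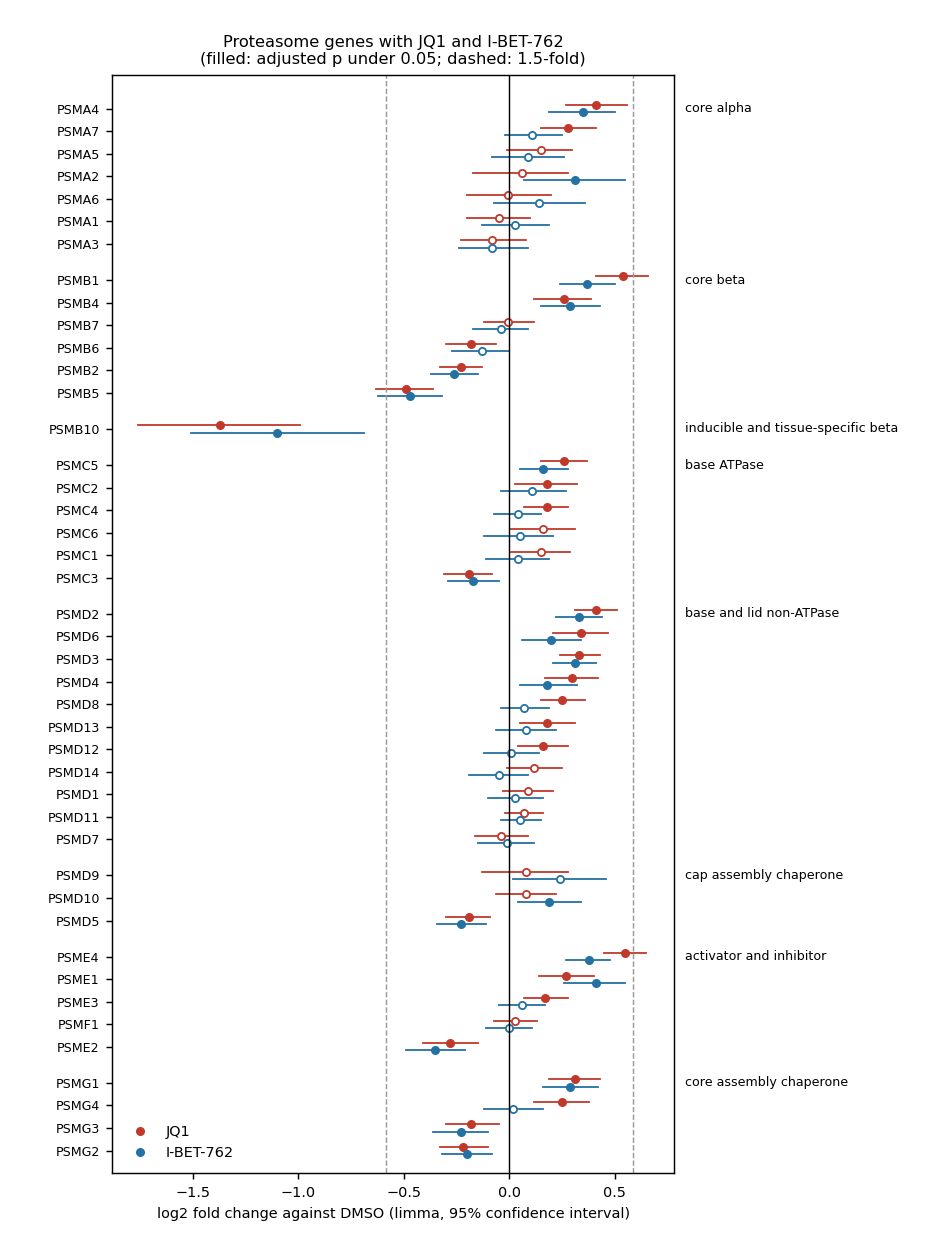
Log2 fold change against DMSO (x axis) of each of the 43 tested proteasome genes (rows, by class) with JQ1 (red) and I-BET-762 (blue), with 95% confidence intervals from limma. Filled points passed an adjusted p of 0.05 and dashed lines mark 1.5-fold, which PSMB10 alone exceeded, at -1.37 with JQ1 and -1.10 with I-BET-762.

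The balance of higher and lower calls depended on how libraries were scaled. Scaling to equal totals moved the median of all genes by -0.18 with JQ1 and by -0.10 with I-BET-762 on the log2 scale, and the calls became 8 higher and 16 lower with JQ1 and 8 higher and 12 lower with I-BET-762. Leaving the 100 most abundant genes out of those totals, a choice made after seeing the data, gave 13 higher and 13 lower with JQ1 and 10 higher and 9 lower with I-BET-762. Among all genes 28.1% were then higher and 42.4% lower with JQ1, and 25.4% and 35.7% with I-BET-762. The members' median exceeded that of all genes by 0.14 with JQ1 and by 0.05 with I-BET-762, a difference that rescaling libraries cannot move, since it shifts all genes alike. As a share of all reads on genes, the members together took 0.688% ± 0.0126 with DMSO (SD, n = 3), 0.681% ± 0.0217 with JQ1 (n = 4) and 0.693% ± 0.00927 with I-BET-762 (n = 3), differences within the spread between libraries. Called in the same direction under all 4 scalings were PSMA4, PSMB1, PSMD2, PSMD3, PSME4 and PSMG1 (higher with each inhibitor), PSMD4 and PSMD6 (higher with JQ1), PSMB4 and PSME1 (higher with I-BET-762), PSMB2, PSMB5, PSMB10, PSMC3, PSMD5, PSME2, PSMG2 and PSMG3 (lower with each) and PSMB6 (lower with JQ1).

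**Figure D3:**
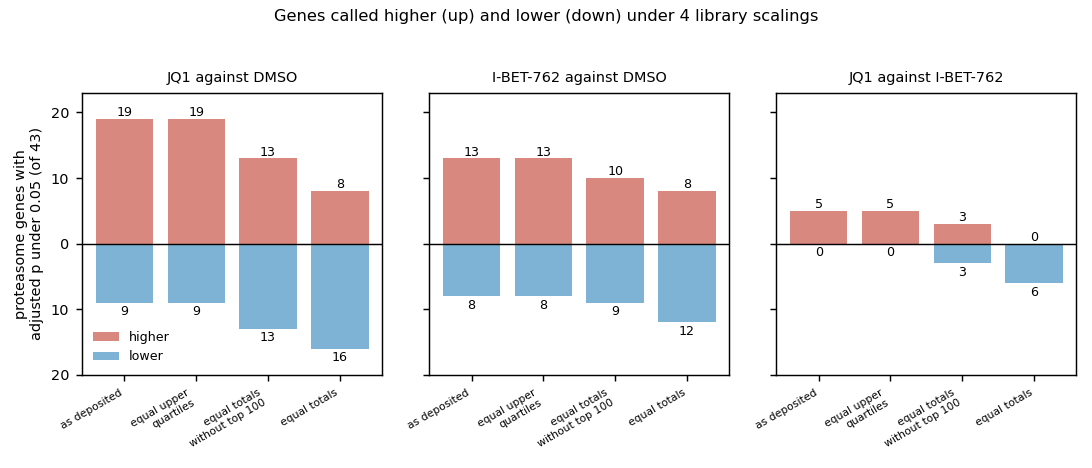
Number of the 43 tested proteasome genes called higher (bars up) and lower (bars down) at an adjusted p under 0.05 in each comparison, under the deposited scaling and 3 others. The count of higher calls with JQ1 falls from 19 as deposited to 8 at equal totals, while lower calls go from 9 to 16. Over all genes the shares go from 36.0% to 23.8% higher and from 35.6% to 46.6% lower.

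Among the catalytic beta subunits, PSMB10 and PSMB5 fell with each inhibitor, PSMB6 fell with JQ1, and PSMB7 passed in neither comparison under the deposited scaling. At equal totals PSMB6 and PSMB7 were called lower with each inhibitor as well. PSMB10, the inducible trypsin-like subunit on chromosome 16 (67934506 to 67936864, minus strand, hg38), had 144, 191 and 170.2 normalized counts with DMSO, 91.2, 54.4, 55.0 and 61.9 with JQ1 and 88.6, 70.2 and 74.8 with I-BET-762. Every treated library was below every DMSO library, and JQ1 replicate 17 was the highest of its group. In limma PSMB10 fell by 1.37 ± 0.18 (SE) on the log2 scale with JQ1 (adjusted p = 4.65e-06), which is 2.59-fold, and by 1.10 ± 0.19 with I-BET-762 (adjusted p = 0.000137), which is 2.15-fold. These were the lowest counts of any tested member.

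PSMB5, the chymotrypsin-like subunit and the site bound by proteasome inhibitor drugs, had 7689, 8314 and 7635 normalized counts with DMSO, 5035, 6321, 5417 and 5652 with JQ1 and 5844, 5783 and 5407 with I-BET-762. Every treated library was below every DMSO library, JQ1 replicate 18 was the nearest to DMSO, and the JQ1 and I-BET-762 libraries overlapped. PSMB5 fell by 0.49 ± 0.06 (SE) with JQ1 (adjusted p = 4.45e-06) and by 0.47 ± 0.07 with I-BET-762 (adjusted p = 2.43e-05), so that the counts dropped by 29.0% and dropped by 27.9%. It was the constitutive core gene with the largest fall in each comparison.

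PSMB6, the caspase-like subunit, had 4611, 4873 and 5041 normalized counts with DMSO, 3957, 4704, 4063 and 4388 with JQ1 and 4411, 4523 and 4302 with I-BET-762. JQ1 replicate 18 overlapped the DMSO libraries, while the I-BET-762 libraries were all below them. PSMB6 fell by 0.18 ± 0.06 (SE) with JQ1 (adjusted p = 0.0108), a call lost without DMSO replicate 15 (-0.15, adjusted p = 0.0616), and its change of -0.13 ± 0.06 with I-BET-762 did not pass (adjusted p = 0.0739). The I-BET-762 call was gained without DMSO replicate 13 (-0.17, adjusted p = 0.0493) or without JQ1 replicate 18 (adjusted p = 0.0207), which enters through the shared estimate of the spread. It was also gained with only the DMSO and I-BET-762 libraries fitted (adjusted p = 0.00786), at equal totals (-0.23, adjusted p = 0.00116) and at equal totals without the 100 most abundant genes (-0.20, adjusted p = 0.00439).

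PSMB7, the constitutive trypsin-like subunit that PSMB10 replaces, had 5897, 6352 and 5851 normalized counts with DMSO, 5635, 6641, 6115 and 5725 with JQ1 and 5968, 5966 and 5647 with I-BET-762. The groups overlapped. PSMB7 differed from DMSO by -0.0031 ± 0.06 on the log2 scale (SE, adjusted p = 0.965) with JQ1 and by -0.04 ± 0.06 (adjusted p = 0.576) with I-BET-762, and their 95% confidence intervals, -0.12 to 0.12 and -0.17 to 0.09, leave room for small changes either way. The result depended on scaling: at equal totals PSMB7 was called lower with JQ1 (-0.19, adjusted p = 0.00152) and with I-BET-762 (-0.14, adjusted p = 0.0202), and without the 100 most abundant genes in the totals it was called lower with JQ1 (-0.12, adjusted p = 0.0267).

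The ratio of PSMB10 to PSMB7 within a library does not depend on scaling. PSMB10 over PSMB7, per kb of exon, was 0.0269, 0.0331 and 0.0320 with DMSO, 0.0178, 0.00901, 0.00990 and 0.0119 with JQ1 and 0.0163, 0.0129 and 0.0146 with I-BET-762. The mean ratio was 2.53-fold lower with JQ1 and 2.10-fold lower with I-BET-762 than with DMSO, and the treated libraries did not overlap the DMSO libraries. The values themselves rest on the PSMB10 count, which may be understated as described above.

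**Figure D4:**
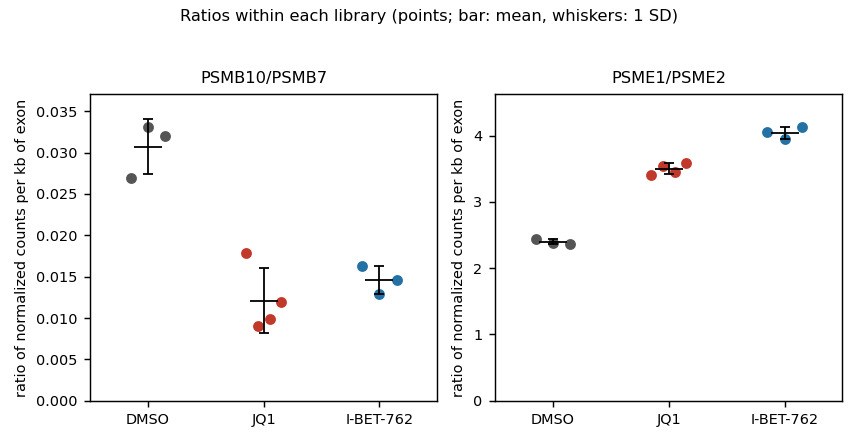
Ratios of normalized counts per kb of exon (y axes, from 0) of PSMB10 to PSMB7 and of PSME1 to PSME2 in each library (points) of the DMSO, JQ1 and I-BET-762 groups, with the mean and 1 SD. The PSMB10 ratio falls from a mean of 0.0307 to 0.0121 and 0.0146, and the PSME1 ratio rises from 2.40 to 3.50 and 4.04.

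The structural core genes also differed among themselves. Of the 6 tested core beta genes, PSMB1 and PSMB4 were higher with each inhibitor (PSMB4 not at equal totals with JQ1, adjusted p = 0.206), and PSMB2 fell by 0.23 ± 0.05 (SE) with JQ1 and by 0.26 ± 0.05 with I-BET-762 (adjusted p = 0.000477 and 0.000395). PSMB1 had 6385, 6974 and 6846 normalized counts with DMSO, 9598, 10982, 9339 and 9238 with JQ1 and 8705, 8788 and 8630.3 with I-BET-762. The groups did not overlap, and each JQ1 library was above each I-BET-762 library. PSMB1 rose by 0.54 ± 0.06 (SE) with JQ1 (adjusted p = 4.45e-07), or 45.1%, and by 0.37 ± 0.06 with I-BET-762 (adjusted p = 7.85e-05), or 29.4%.

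Of the 7 tested core alpha genes, whose ring gates entry to the core, 2 rose and 0 fell in each comparison with DMSO. Among all genes 36.0% were higher and 35.6% lower with JQ1, and 29.9% and 31.3% with I-BET-762. PSMA4 had 11478, 13115 and 12232 normalized counts with DMSO, 15524, 18854, 16146 and 15073 with JQ1 and 15731, 15867 and 15137 with I-BET-762. All treated libraries were above all DMSO libraries. PSMA4 rose by 0.41 ± 0.07 (SE) with JQ1 (adjusted p = 4.80e-05) and by 0.35 ± 0.07 with I-BET-762 (adjusted p = 0.000687). The other calls were PSMA7 with JQ1 (0.28 ± 0.06, adjusted p = 0.000584), which did not pass at equal totals (0.09, adjusted p = 0.104), and PSMA2 with I-BET-762 (0.31 ± 0.11, adjusted p = 0.0253), which did not pass under 6 of its 20 alternatives, among them leaving out DMSO replicate 13 or 14 or I-BET-762 replicate 22 or 23 (adjusted p = 0.0963, 0.0626, 0.0517 and 0.0937).

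**Figure D5:**
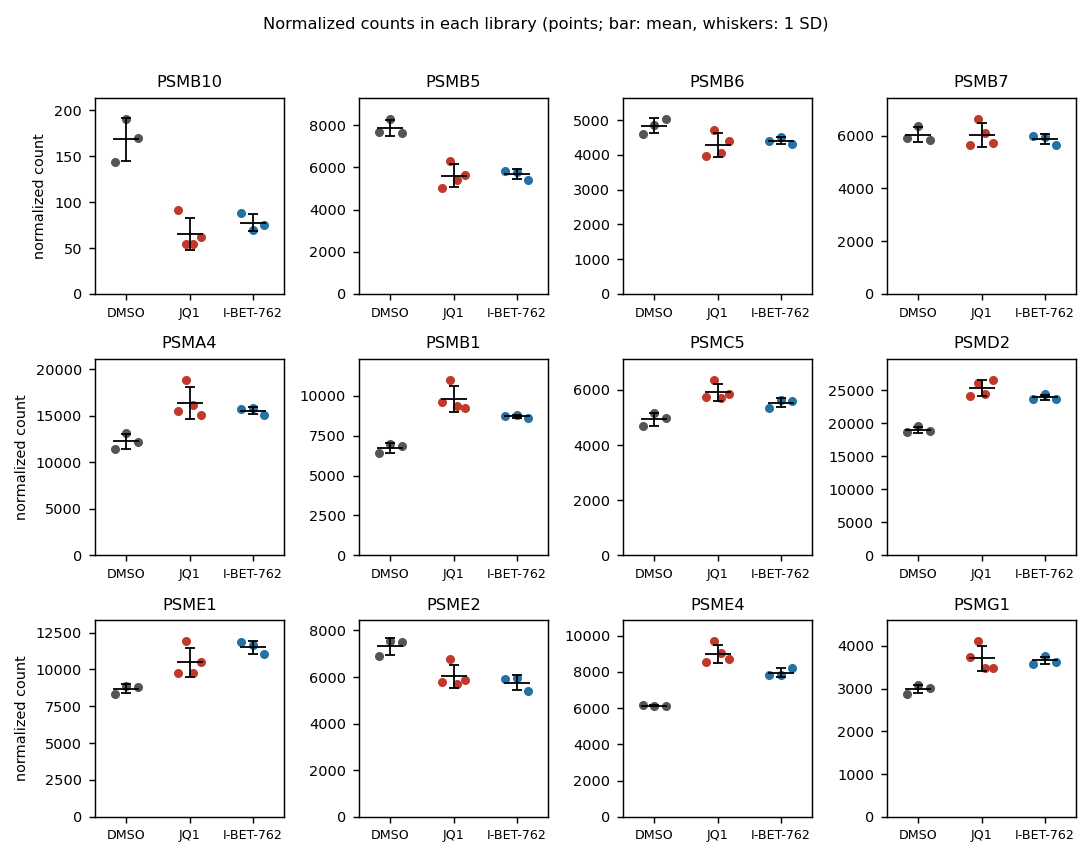
Normalized counts (y axes, from 0) of 12 proteasome genes in each DMSO, JQ1 and I-BET-762 library (points), with the group mean and 1 SD. PSMB10 and PSMB5 drop in all treated libraries, PSMB7 overlaps between groups, and PSMB1, PSMA4, PSMD2, PSME4 and PSMG1 lie higher in all treated libraries than in any DMSO library.

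In the cap, the non-ATPase genes were higher or not called, and 0 of the 11 were lower in either comparison: 7 were higher with JQ1 and 4 with I-BET-762, where 36.0% and 29.9% of all genes were higher and 35.6% and 31.3% were lower. PSMD2, a scaffold of the cap base that docks ubiquitin shuttles, had the highest count of all members, with 18734, 19514 and 18790.3 normalized counts with DMSO, 24134, 26145, 24357 and 26536 with JQ1 and 23745, 24380.3 and 23671 with I-BET-762. The DMSO libraries were all below the treated ones. PSMD2 rose by 0.41 ± 0.05 (SE) with JQ1 (adjusted p = 1.20e-06) and by 0.33 ± 0.05 with I-BET-762 (adjusted p = 3.99e-05). PSMD3, a lid scaffold, rose by 0.33 ± 0.05 with JQ1 and by 0.31 ± 0.05 with I-BET-762 (adjusted p = 6.49e-06 and 4.54e-05). PSMD6 and PSMD4, a ubiquitin receptor, rose by 0.34 ± 0.06 and 0.30 ± 0.06 with JQ1 (adjusted p = 0.000116 and 0.000235). With I-BET-762 they passed at 0.20 and 0.18 but not at equal totals (adjusted p = 0.0949 and 0.127), nor did PSMD6 pass without DMSO replicate 13 (adjusted p = 0.0694) or PSMD4 without DMSO replicate 15 or I-BET-762 replicate 21 or 22 (adjusted p = 0.0736, 0.0682 and 0.0524). PSMD8 rose by 0.25 ± 0.05 with JQ1 (adjusted p = 0.000248; 0.106 at equal totals). PSMD12 and PSMD13 passed with JQ1 at 0.16 and 0.18 as deposited, were at -0.02 and -0.0033 at equal totals, and did not pass without DMSO replicate 13 (adjusted p = 0.127 and 0.104). PSMD1, PSMD7, PSMD11 and the deubiquitinase PSMD14 passed with neither inhibitor.

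The base ATPases, which thread substrates into the core, gave 3 higher and 1 lower of 6 with JQ1 and 1 higher and 1 lower with I-BET-762. Among all genes 36.0% were higher and 35.6% lower with JQ1, and 29.9% and 31.3% with I-BET-762. PSMC5 had 4691, 5148 and 4973 normalized counts with DMSO, 5727, 6354, 5716 and 5836 with JQ1 and 5338, 5648 and 5606 with I-BET-762. Its treated libraries were all above the DMSO libraries. PSMC5 rose by 0.26 ± 0.05 (SE) with JQ1 (adjusted p = 0.000257) and by 0.16 ± 0.05 with I-BET-762 (adjusted p = 0.0153), the latter lost without DMSO replicate 13, I-BET-762 replicate 22 or I-BET-762 replicate 23 (adjusted p = 0.0768, 0.0627 and 0.0529). At equal totals PSMC5 passed in neither comparison (0.07 in each). PSMC3 fell by 0.19 ± 0.05 with JQ1 (adjusted p = 0.00373) and by 0.17 ± 0.06 with I-BET-762 (adjusted p = 0.0165), the latter lost without DMSO replicate 14, DMSO replicate 15 or I-BET-762 replicate 23 (adjusted p = 0.0618, 0.0612 and 0.0941). PSMC2 and PSMC4 passed with JQ1 at 0.18 each, and each was at -0.01 at equal totals. The call of PSMC2 was also lost without DMSO replicate 13 or 15 (adjusted p = 0.118 and 0.0506). The canonical transcript of PSMC1 is overlapped for 83.2% by NRDE2 on the other strand, and whether counting used the strand is not given in the sources used here.

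The activators gave opposed changes within the PA28 ring. PSME1, the alpha subunit at chromosome 14, 24136163 to 24138967 (hg38), had 8336, 8886 and 8825 normalized counts with DMSO, 9786, 11893, 9761 and 10491 with JQ1 and 11851, 11633 and 11020.5 with I-BET-762. PSME2, the beta subunit at 24143362 to 24147570 on the same chromosome, had 6889, 7525 and 7522 with DMSO, 5785, 6771, 5715 and 5889 with JQ1 and 5906, 5956 and 5386 with I-BET-762. Treated libraries were all above DMSO for PSME1 and all below it for PSME2. PSME1 rose by 0.27 ± 0.06 (SE) with JQ1 (adjusted p = 0.00116; 0.08 and adjusted p = 0.139 at equal totals) and by 0.41 ± 0.07 with I-BET-762 (adjusted p = 7.41e-05). PSME2 fell by 0.28 ± 0.06 with JQ1 (adjusted p = 0.000784) and by 0.35 ± 0.07 with I-BET-762 (adjusted p = 0.000284).

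Within libraries, PSME1 over PSME2 per kb of exon was 2.44, 2.38 and 2.37 with DMSO, 3.41, 3.54, 3.45 and 3.59 with JQ1 and 4.05, 3.94 and 4.13 with I-BET-762. The groups did not overlap, and the mean was 1.46 times that of DMSO with JQ1 and 1.69 times with I-BET-762. On canonical transcript lengths the DMSO mean was 0.976 in place of 2.40, so the level of the ratio depends on the length used while its change does not.

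PSME4, the large single-chain activator PA200, had 6180.0, 6109 and 6107 normalized counts with DMSO, 8526, 9671, 9053 and 8715 with JQ1 and 7814, 7846 and 8218 with I-BET-762. The 3 groups did not overlap. PSME4 rose by 0.55 ± 0.05 (SE) with JQ1 (adjusted p = 3.98e-08), or 46.5%, and by 0.38 ± 0.05 with I-BET-762 (adjusted p = 1.12e-05), or 29.8%.

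PSME3, the nuclear PA28 gamma, had 3149, 3212 and 3088 normalized counts with DMSO, 3287, 3672, 3623 and 3627 with JQ1 and 3267, 3201 and 3373 with I-BET-762. The JQ1 libraries were above DMSO, with replicate 17 the lowest, and the I-BET-762 libraries overlapped DMSO. PSME3 passed with JQ1 at 0.17 ± 0.05 (SE, adjusted p = 0.00495) but was at -0.01 at equal totals, and it was at 0.06 ± 0.05 (adjusted p = 0.348) with I-BET-762. PSMF1, which encodes the inhibitor protein PI31, had 2781, 2867 and 2900.3 with DMSO, 2840.4, 3087, 2785 and 2936 with JQ1 and 2834, 2897 and 2805 with I-BET-762. The groups overlapped. PSMF1 differed from DMSO by 0.03 ± 0.05 with JQ1 and by -0.0019 ± 0.05 with I-BET-762, and neither passed (adjusted p = 0.575 and 0.977), while at equal totals PSMF1 was called lower with JQ1 (-0.15, adjusted p = 0.00255).

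The chaperones that assemble the core did not move as partners. PSMG1 and PSMG2 form one heterodimer, and PSMG3 and PSMG4 the other. PSMG1 had 2883, 3079.5 and 3009 normalized counts with DMSO, 3750.3, 4104, 3492 and 3487 with JQ1 and 3587, 3762 and 3631 with I-BET-762, with all treated libraries above DMSO. PSMG1 rose by 0.31 ± 0.06 (SE) with JQ1 and by 0.29 ± 0.06 with I-BET-762 (adjusted p = 0.000155 and 0.000642), while PSMG2 fell by 0.22 ± 0.05 and 0.20 ± 0.06 (adjusted p = 0.00209 and 0.00670). PSMG3 fell by 0.18 ± 0.06 with JQ1 (adjusted p = 0.0131; 0.0630 without DMSO replicate 14) and by 0.23 ± 0.06 with I-BET-762 (adjusted p = 0.00519), and PSMG4 rose by 0.25 ± 0.06 with JQ1 (adjusted p = 0.00166; 0.368 at equal totals) and was at 0.02 ± 0.06 with I-BET-762.

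Among the cap assembly chaperones, PSMD5 fell by 0.19 ± 0.05 (SE) with JQ1 and by 0.23 ± 0.05 with I-BET-762 (adjusted p = 0.00219 and 0.00149). PSMD10, also known as gankyrin, was at 0.08 ± 0.07 with JQ1 and rose by 0.19 ± 0.07 with I-BET-762 (adjusted p = 0.0267), a call lost in 6 of 20 alternatives, among them leaving out DMSO replicate 13 or I-BET-762 replicate 21 or 22 (adjusted p = 0.109, 0.0884 and 0.0721). PSMD9 had 282, 299 and 282 normalized counts with DMSO, 270.3, 295, 310.1 and 344 with JQ1 and 378, 332 and 313 with I-BET-762. The JQ1 libraries overlapped DMSO and the I-BET-762 libraries were above it. Its change of 0.24 ± 0.10 with I-BET-762 did not pass (adjusted p = 0.0543), passed without I-BET-762 replicate 23 (0.30, adjusted p = 0.0393) and without JQ1 replicates 17, 18 or 20 (adjusted p = 0.0439, 0.0461 and 0.0385), with only the 2 groups fitted and in limma-voom (adjusted p = 0.0227 and 0.0483), and with JQ1 it was at 0.08 ± 0.10 (adjusted p = 0.477).

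Between the inhibitors at the same dose and time, 5 of 43 members were higher with JQ1 than with I-BET-762 and 0 were lower, 11.6% against 27.3% of all tested genes (13.3% higher and 14.0% lower). The differences were 0.23 ± 0.06 (SE) for PSMG4 (adjusted p = 0.0114), 0.18 ± 0.05 for PSMD8 (0.0138), 0.17 ± 0.05 for PSME4 (0.0136), 0.17 ± 0.06 for PSMB1 (0.0437) and 0.17 ± 0.06 for PSMD14 (0.0489). All were under 1.2-fold, and 0 members passed 1.5-fold, against 5.31% of all genes. All JQ1 libraries lay above all I-BET-762 libraries for 8 members and below them for 1 (17.5% and 16.3% of all genes). Not 1 of these calls held at equal totals, where 0 members were higher and 6 lower (6.73% and 23.8% of all genes). Without I-BET-762 replicate 21, 22 or 23 the calls numbered 1, 2 and 1, without DMSO replicate 14 or 15 they numbered 3, and without JQ1 replicate 20 they numbered 9. Where no difference was called, the 95% confidence interval of JQ1 against I-BET-762 was -0.65 to 0.12 for PSMB10, -0.16 to 0.12 for PSMB5, -0.27 to -0.01 for PSME1 (adjusted p = 0.115) and -0.06 to 0.20 for PSME2, so differences of these sizes were not excluded by the data.

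Partners of the proteasome outside the PSM symbols were examined as lists, whose counts stand beside 36.0% of all genes higher and 35.6% lower with JQ1 and 29.9% higher and 31.3% lower with I-BET-762. Of 11 genes for other subunits and partners of the 26S particle, 9 were higher and 1 was lower with JQ1, and 4 were higher and 1 was lower with I-BET-762, with medians of 0.27 and 0.10. ADRM1, a ubiquitin receptor of the cap, rose by 0.41 ± 0.05 (SE) with JQ1 and by 0.15 ± 0.05 with I-BET-762 (adjusted p = 2.15e-06 and 0.0224). UBE3C, a ligase on the cap that extends ubiquitin chains, rose by 0.55 ± 0.04 and 0.38 ± 0.04 (adjusted p = 4.02e-09 and 1.49e-06). ECPAS, an adaptor that binds the 26S particle, fell by 0.41 ± 0.04 and 0.32 ± 0.05 (adjusted p = 5.62e-07 and 2.67e-05), and the core maturation factor POMP rose with JQ1 (0.22 ± 0.07, adjusted p = 0.0136). Of 15 tested genes for ubiquitin, its activating enzymes and shuttles, 11 were higher and 1 was lower with JQ1 and 8 were higher and 0 lower with I-BET-762, with medians of 0.24 and 0.16. All list results, those of the regulators below included, are given under the deposited scaling only. Equal totals took the members' JQ1 median from 0.15 to -0.04 and their I-BET-762 median from 0.05 to -0.05. Rescaling shifts the list genes alike, so their counts of higher genes hold for the deposited scaling only. Whether the smaller rises in the lists, such as that of POMP, hold at equal totals is not reported here.

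Of 11 regulators of proteasome transcription, 6 were higher and 5 lower with JQ1, and 3 were higher and 6 lower with I-BET-762, against the same shares of all genes. NFE2L1 fell by 0.39 ± 0.05 (SE) with JQ1 and by 0.28 ± 0.05 with I-BET-762 (adjusted p = 2.56e-06 and 0.000225), while its activating protease gene DDI2 rose by 0.41 ± 0.06 and 0.32 ± 0.07 (adjusted p = 1.81e-05 and 0.000609). NFE2L2 rose by 0.28 ± 0.06 with JQ1 (adjusted p = 0.000302) and was at 0.04 ± 0.06 with I-BET-762 (adjusted p = 0.606). NLRC5, the transactivator of MHC class I genes, fell by 1.25 ± 0.10 and 0.99 ± 0.10 (adjusted p = 7.81e-09 and 5.62e-07), and IRF1, an interferon-response factor, fell by 0.49 ± 0.06 and 0.44 ± 0.06 (adjusted p = 1.31e-06 and 1.26e-05). These moved in the same libraries as PSMB10 and PSME2, and their part in those changes was not tested.

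Within groups, members were often highest or lowest in the same library. JQ1 replicate 18 was the highest of its group for 35 of the 43 tested members and for 36.7% of all tested genes, with a median deviation from the group mean of 0.12 for members and 0.02 for all genes on the log2 scale. DMSO replicate 14 was the highest for 31 members (37.6% of all genes). The lowest for 32 members was DMSO replicate 13 in its group (45.8% of all genes), and for as many it was replicate 23 in the I-BET-762 group (38.7%). These libraries also had the highest or lowest total of normalized counts in their groups, and the part of that in the order was not tested. Under all alternatives tried, other than the fold cut-offs, 8 of the 19 higher and 7 of the 9 lower calls with JQ1 and 8 of the 13 higher and 7 of the 8 lower calls with I-BET-762 were kept. The 2 directions cannot be compared by these counts, which were made for the members only. Equal totals moved the median of all genes to -0.18 with JQ1 and -0.10 with I-BET-762, which works against higher calls and for lower ones. Kept with each inhibitor were PSMA4, PSMB1, PSMD2, PSMD3, PSME4 and PSMG1 among the higher and PSMB2, PSMB5, PSMB10, PSMD5, PSME2 and PSMG2 among the lower.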

How the data were processed

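RNA-seq libraries of SK-UT-1 cells took their groups from the treatment label. Of 12 labelled libraries 10 were used, and replicates 16 (DMSO) and 24 (I-BET-762) were not analysed here. The authors trimmed reads with Trimmomatic after FastQC 0.73, aligned them to hg38 with HISAT2 2.2.1, counted them on Gencode V41 genes with featureCounts 2.0.3, normalized with DESeq2 and dropped outlier samples. The strand setting is not given in the sources used here. Values were deposited as log2(normalized count + 1). They were whole reads in 99.67% to 99.72% of values per library (tolerance 0.02), which gave the depth, and normalized counts are shown after undoing the log2.

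Symbols with at least 10 normalized counts in at least 3 libraries were fitted with limma 3.58.1 (R 4.3.3, intensity trend, all groups in 1 fit) on the deposited log2 values (pseudocount 1), with Benjamini-Hochberg adjustment over 14839 symbols. A gene was called at an adjusted p under 0.05. The authors' methods used DESeq2 on counts. The deposited values are on a log2 scale, so limma was the main test, and reads recovered from them were used in an alternative. Alternatives changed the pseudocount, filter, scaling, variance model, libraries and call rule, or ran limma-voom on the recovered reads. Replicates differed by more than counting error (chi-square per gene 2.77 to 22.1), and none were merged.

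The members, gene lists and tests were chosen with earlier results of these data known, and the result of 1 gene list is not reported here. Values in every library are given for the catalytic beta subunits, the activators and PSMF1, any member past 1.5-fold and the member with the largest change of each class. Positions, lengths and overlaps are from Gencode V44, where all 47 members were found. Ratios to PSMB5 and PSMB6 of their inducible partners are not given, since PSMB8 was not analysed here and PSMB9 is listed at or near 0. Protein sequences were not used here.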

Additional observations from a re-analysis of the deposited data

Results flagged for a closer look

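In the JQ1 group, the 1 group with 4 libraries, 1 library stood far from the rest in 4 of the 43 tested members. The gap to the nearest library, as a share of the group's range, exceeded Dixon's 95% critical value in each. Chance flags about 1 in 20 independent groups, but the members share libraries, and 3 of the 4 flags are of replicate 18. The share of all genes flagged is not given here, so whether 4 is unusual was not tested. For PSMD14 the share was 0.974, with replicate 18 at 8395 normalized counts and the others at 7071 to 7105. For PSMC3 it was 0.836, with replicate 18 at 6972 and the others at 6174 to 6305. For PSME2 it was 0.835, with replicate 18 at 6771 and the others at 5715 to 5889. For PSME3 it was 0.872, with replicate 17 lowest at 3287 and the others at 3623 to 3672. Replicate 18 was also the library that stood highest for 35 of the 43 members (36.7% of all tested genes). The call of PSMD14 between the inhibitors was lost without it (0.11, adjusted p = 0.0603 in limma), and the calls of PSMC3 and PSME2 with JQ1 were kept. The cause was not tested.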

How the results depend on the processing

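Counts of members called moved by over 1.5 times under these settings. Requiring 1.5-fold left 1 call with JQ1 and 1 with I-BET-762 (0 higher and 1 lower in each) and 0 between the inhibitors. Requiring 1.2-fold left 13 with JQ1 (10 higher, 3 lower), 12 with I-BET-762 (3 lower) and 0 between the inhibitors. At equal totals the calls were 8 higher and 16 lower with JQ1 (23.8% and 46.6% of all genes) and 8 higher with I-BET-762 (22.6%). Between the inhibitors they were 0 higher and 6 lower (6.73% and 23.8%). Equal totals without the 100 most abundant genes gave 3 higher and 3 lower between the inhibitors (8.70% and 19.7%). Between the inhibitors 3 were called, all higher, with no filter on low values, with no intensity trend and with only those 2 groups fitted, and 1 to 9 when 1 library was left out (1 to 8 higher and 0 to 2 lower).

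Signs changed at equal totals with JQ1 for PSMC2 and PSMC4 (-0.01 each), PSMD12 (-0.02), PSMD13 (-0.0033), PSME3 (-0.01), and for the uncalled PSMD9 (-0.11) and PSMF1 (-0.15, adjusted p = 0.00255), and with I-BET-762 for PSME3 (-0.04). Without the 100 most abundant genes they changed for PSMD9 (-0.04) and PSMF1 (-0.09) with JQ1 and PSME3 (-0.0038) with I-BET-762. Leaving out 1 library gave PSMB7 with JQ1 values from -0.05 to 0.03 and PSMF1 with I-BET-762 values from -0.02 to 0.01. Of 1080 values of the 54 called changes under an alternative, 997 kept their call and sign, 78 lost the call and 5 changed sign, and of 160 values of 8 uncalled changes 14 gained a call. The cause was not tested. The PSMB10 ratio and the share of reads moved by less than 1 SD.

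No paired analysis was possible because replicate numbers differ between all groups. PSMA8 and PSMB11 were under what this depth can detect, PSMB3 and PSMB9 are listed near 0 and have exon copies on alternate contigs, and the number of libraries per group sets the width of each interval.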
